A study of Mus musculus with 5 samples.

Results

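The genes described here are 10 markers of the cells that build brain blood vessels, measured in RNA that was pulled down with the ribosomes of Drd2 neurons. They were chosen by name, as the rows of the deposited table called Cldn5, Pecam1, Flt1, Kdr, Tek, Slco1c1 and Abcb1a, which mark endothelial cells, and Pdgfrb, Rgs5 and Vtn, which mark mural cells. All 10 were found among the 15093 genes of the table. The mice were adult Drd2-TRAP animals, in which Cre driven by a Drd2 transgene switches on an EGFP-tagged ribosomal protein L10a, so that translating ribosome affinity purification (TRAP) with an antibody to EGFP enriches RNA of Drd2 neurons. There were 5 libraries from the central amygdala (CeA), each from bilateral punches of 1 mm pooled from 3 animals, 3 of fear conditioned mice (replicates 2, 3 and 4) and 2 of home cage mice (replicates 6 and 7). Animals of the first group received tones paired with foot shocks. The labels call the second group home cage controls and place collection 2 h after extinction, whereas the study's text describes controls that heard the tone without shock and collection 2 h after conditioning. Both groups carried the same transgenes, so the comparison asks which ribosome-bound RNAs differ between fear conditioned mice and the controls. Learning cannot be told apart from the shock itself, nor from the chamber and the tone if the controls stayed in the home cage.

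Endothelial cells line the capillaries of the brain and seal them with tight junctions into the blood-brain barrier. Pericytes and smooth muscle cells, together called mural cells, wrap the vessels and depend on platelet-derived growth factor from the endothelium. Neither cell type is a target of a pull-down from Drd2 neurons.

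Each library held between 19605318 and 27937520 recovered reads, and 3 reads, used as a floor, corresponded to between 0.1002 and 0.158 counts per 1000000 (CPM), the unit of the deposited signal. The floor covers counting error only. The home cage libraries stood apart from each other, with 976 and 2681 genes at 0 reads, against 159 to 349 in the fear conditioned libraries. Markers of Drd2 neurons (Drd2, Adora2a, Penk and Gpr6) summed to between 15033 and 17120 CPM after fear conditioning, against 6421 and 9284 CPM in the home cage libraries, while the 10 vessel genes summed to between 27.4 and 68.4 CPM and to 120 and 183 CPM.

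Promoters of 8 of the 10 genes, all but Pecam1 and Pdgfrb, were taken from a RefSeq table of the GRCm38.p6 build. Of these, 4 are shown here because their genes give the main patterns in the libraries. Flt1 and Kdr encode receptors for vascular endothelial growth factor (VEGF), Tek was without reads in both home cage libraries, and Rgs5 is the mural gene with the largest difference between the groups. The windows run from 250 bases before to 50 bases after the start site, at chr5:147725962-147726261 and chr5:75978406-75978705 on the minus strand and at chr4:94739039-94739338 and chr1:169655251-169655550 on the plus strand, and are written 5′ to 3′. Capitals mark GGAAG or its reverse complement CTTCC, a form of the core bound by ETS factors, which are known regulators of endothelial genes.
Flt1: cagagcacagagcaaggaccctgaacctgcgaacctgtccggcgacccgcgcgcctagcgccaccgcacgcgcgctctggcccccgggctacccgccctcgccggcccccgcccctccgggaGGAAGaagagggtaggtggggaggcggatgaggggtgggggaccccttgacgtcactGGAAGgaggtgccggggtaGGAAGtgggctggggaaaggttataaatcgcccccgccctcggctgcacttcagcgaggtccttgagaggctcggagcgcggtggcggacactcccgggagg
Kdr: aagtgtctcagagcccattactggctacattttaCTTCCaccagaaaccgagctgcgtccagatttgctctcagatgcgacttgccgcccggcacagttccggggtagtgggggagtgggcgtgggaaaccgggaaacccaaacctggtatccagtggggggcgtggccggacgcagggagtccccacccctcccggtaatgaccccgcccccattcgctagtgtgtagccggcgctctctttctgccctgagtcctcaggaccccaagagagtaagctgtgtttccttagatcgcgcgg
Tek: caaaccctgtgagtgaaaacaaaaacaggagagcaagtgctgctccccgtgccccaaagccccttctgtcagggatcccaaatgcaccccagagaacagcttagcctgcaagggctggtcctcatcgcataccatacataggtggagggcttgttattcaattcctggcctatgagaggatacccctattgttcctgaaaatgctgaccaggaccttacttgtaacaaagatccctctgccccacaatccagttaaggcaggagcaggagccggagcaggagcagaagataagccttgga
Rgs5: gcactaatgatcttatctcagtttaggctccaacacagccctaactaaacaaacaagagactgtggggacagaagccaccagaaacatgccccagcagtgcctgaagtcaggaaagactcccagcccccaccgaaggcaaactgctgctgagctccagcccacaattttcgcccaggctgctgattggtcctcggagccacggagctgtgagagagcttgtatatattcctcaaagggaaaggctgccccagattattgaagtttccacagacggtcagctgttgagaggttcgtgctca
The Flt1 window held 3 matches and the Kdr window 1, and the Tek and Rgs5 windows held none. Over the genes used 5 of 8 windows held GGAAG on either strand, beside 71.4% of the 32851 promoters of the table. ACAAT, a core bound by SOX factors, was in 2 of the 8 windows (31.0% of all promoters), and AGATAA, bound by GATA factors, in 2 (11.2% of all promoters). These matches describe the letters of the windows and no binding was measured.

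Of the junction genes, Cldn5 encodes the main claudin of the endothelial tight junction. Its signal was 8.91, 1.79 and 7.25 CPM in fear conditioned replicates 2, 3 and 4 and 1.14 and 0.0527 CPM in home cage replicates 6 and 7. All fear conditioned libraries lay above both home cage libraries, although fear conditioned replicate 3 was close to home cage replicate 6. In reads, home cage replicate 7 held 1 read of Cldn5 and home cage replicate 6 held 34, while the fear conditioned libraries held 43 to 188. The log2 fold change of fear conditioned over home cage libraries, on the log2(CPM + 1) scale, was 2.03 (standard error 0.77, 95% interval 0.16 to 3.89, limma adjusted p = 0.272). With a home cage mean of 0.594 CPM, Cldn5 reached the minimum mean of 1 CPM for this fit only through the fear conditioned libraries. Pecam1, an adhesion molecule of endothelial junctions that blood cells also carry, had 2.89, 0.125 and 1.59 CPM after fear conditioning, against 4.14 and 2.53 CPM in home cage libraries. The groups overlapped, and its log2 fold change was -0.92 (standard error 0.70, limma adjusted p = 0.526), or -0.42 without fear conditioned replicate 3. Fear conditioned replicate 3 held 3 reads of Pecam1, which is at the floor.

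The VEGF receptors differed from each other in the home cage libraries. Flt1 (VEGF receptor 1), which binds the ligand tightly and signals weakly, had 8.25, 1.83 and 8.69 CPM after fear conditioning, against 12.9 and 7.86 CPM in home cage replicates 6 and 7. The groups overlapped, with a log2 fold change of -0.81 (standard error 0.74, limma adjusted p = 0.600). Without fear conditioned replicate 3, the low library, it was -0.23. Kdr (VEGF receptor 2), the receptor through which VEGF drives vessel growth, had 1.37, 0.999 and 2.38 CPM after fear conditioning, 0.234 CPM in home cage replicate 6 and 31.3 CPM in home cage replicate 7. The home cage libraries therefore lay on either side of all fear conditioned libraries, and they were 134-fold apart (7 and 593 reads). The log2 fold change of Kdr was -1.32 (standard error 1.33, 95% interval -4.56 to 1.91, limma adjusted p = 0.634), and it turned to 1.03 without home cage replicate 7 and was -3.68 without home cage replicate 6.

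Tek (Tie2), the receptor for angiopoietins that keeps vessels quiescent, had 2.47, 0.125 and 1.69 CPM after fear conditioning, against 0 reads in both home cage libraries. The fear conditioned libraries held 52, 3 and 34 reads, so that replicate 3 was at the floor of 3 reads. The mean after fear conditioning was 11.04-fold the mean of that floor over the home cage libraries. The exact permutation test on log2(CPM + 1) gave p = 0.2 (two-sided), and the design cannot go below 0.1. Its mean over all libraries was 0.856 CPM, below the minimum of 1 that the limma fit used, so Tek was not among the genes tested with that fit. Its partner receptor Tie1 (41, 21 and 15 reads after fear conditioning) and the ligand Angpt1 (3, 41 and 17 reads) were also without reads in both home cage libraries. Their means after fear conditioning were 9.19-fold and 6.95-fold the same floor. Tie1 and Angpt1 are named here because they had no home cage reads, as had 3.5% of all genes in the table, and Angpt1 was at the floor in fear conditioned replicate 2. Every gene of the table exceeded 1 CPM in some library. Tek, Tie1 and Angpt1 are therefore in it only through the fear conditioned libraries. For this reason neither these ratios nor the permutation test of Tek can test a difference.

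The transporters of the list were highest in home cage replicate 7. Slco1c1 carries thyroxine across the barrier and is also known from astrocytes and choroid plexus. It had 10.6, 6.20 and 6.16 CPM after fear conditioning, against 14.3 and 51.0 CPM in home cage replicates 6 and 7. All fear conditioned libraries lay below both home cage libraries, with a log2 fold change of -1.74 (standard error 0.67, 95% interval -3.36 to -0.13, limma adjusted p = 0.275). Without home cage replicate 7 it was -0.86. Abcb1a, the P-glycoprotein pump that expels drugs from the brain, had 2.94, 1.12 and 2.38 CPM after fear conditioning, against 0.634 and 17.9 CPM in home cage replicates 6 and 7. As for Kdr, the home cage libraries lay on either side of the fear conditioned libraries, here 28.2-fold apart. The log2 fold change was -0.87 (standard error 1.07, limma adjusted p = 0.703) and it turned to 0.90 without home cage replicate 7. Reads of Abcb1a can be split with its close paralog Abcb1b, which had 2.24 CPM in home cage replicate 6 and 0.0527 CPM in home cage replicate 7, and between 0.250 and 0.695 CPM after fear conditioning.

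The 3 listed mural genes were higher in both home cage libraries than in any fear conditioned library. Rgs5, a regulator of G protein signaling that marks pericytes, had 11.7, 5.83 and 9.93 CPM after fear conditioning, against 48.3 and 36.2 CPM in home cage libraries. Its log2 fold change was -2.12 (standard error 0.48, 95% interval -3.28 to -0.97, limma adjusted p = 0.197). Vtn, which encodes the matrix protein vitronectin, had 15.0, 7.20 and 14.1 CPM after fear conditioning, against 29.7 and 27.7 CPM in home cage libraries, with a log2 fold change of -1.24 (standard error 0.48, 95% interval -2.41 to -0.07, limma adjusted p = 0.283). Pdgfrb, the receptor through which the endothelium recruits pericytes, had 4.27, 2.17 and 1.94 CPM after fear conditioning, against 8.35 and 8.02 CPM in home cage libraries. Its log2 fold change was -1.33 (standard error 0.57, 95% interval -2.71 to 0.06, limma adjusted p = 0.313). For each mural gene the exact permutation test gave p = 0.1 (two-sided), the lowest value this design can give. In RNA pulled down from pooled punches, the number of cells of a type, their RNA per cell, the content of the punches and the share of RNA from non-target cells cannot be told apart.

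**Figure D1:**
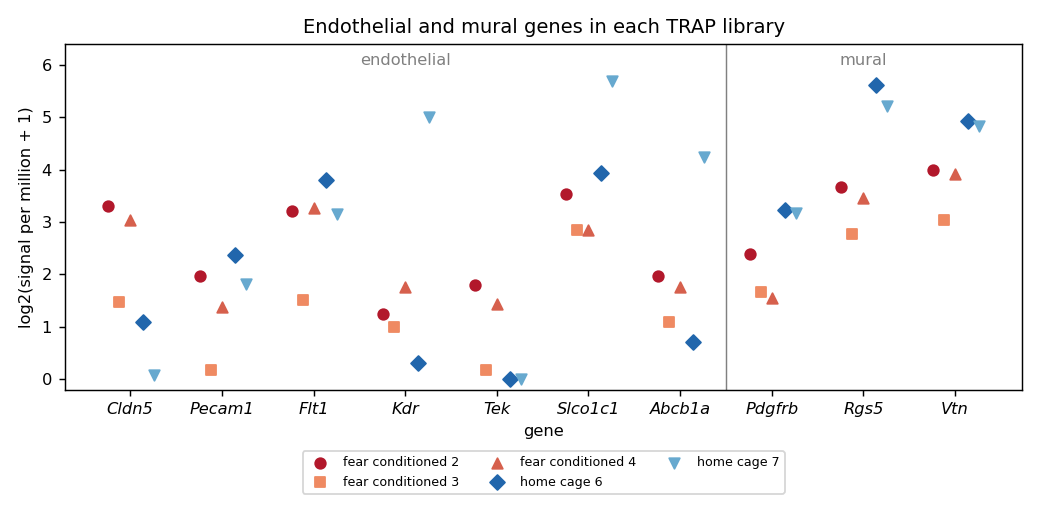
Each point is 1 library, with the 10 genes on the x axis (endothelial left, mural right) and log2(CPM + 1) on the y axis. The home cage libraries lie together and above the fear conditioned libraries for Pdgfrb, Rgs5 and Vtn, on either side of them for Kdr (0.234 and 31.3 CPM) and Abcb1a (0.634 and 17.9 CPM), and at 0 for Tek.

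Divided by the deposited gene length, the order of the levels differed between the groups. After fear conditioning the mean level was highest for Vtn with 4.97 ± 1.75 CPM per kb (SD, n = 3) and Cldn5 with 4.24 ± 2.64, followed by Slco1c1 and Rgs5, and then by Flt1, Pdgfrb, Abcb1a, Pecam1, Tek and Kdr, all between 0.239 and 0.542 CPM per kb. The gap between neighbors exceeded the larger of their SDs only between Rgs5 (1.97 ± 0.650) and Flt1 (0.542 ± 0.332). In the home cage libraries Vtn (11.8 ± 0.572 CPM per kb, SD, n = 2), Slco1c1 (11.3 ± 8.97) and Rgs5 (9.10 ± 1.83) came first, then Kdr, Abcb1a, Pdgfrb, Flt1, Pecam1 and Cldn5, and Tek was last at 0. There the gaps after Rgs5 and between Pdgfrb (1.40 ± 0.0404) and Flt1 (0.900 ± 0.310) exceeded the larger SD, and the others did not. Cldn5 was the second of the 10 genes after fear conditioning and the ninth in home cage libraries, with a mean level of 0.420 ± 0.542 CPM per kb.

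The home cage libraries lay close together for the 3 listed mural genes and far apart for several endothelial genes. This order depended in part on the scaling: after quantile normalization the difference was 0.66 for Pdgfrb and -0.05 for Flt1. As deposited, on the log2(CPM + 1) scale, home cage replicate 7 minus replicate 6 was -0.05 for Pdgfrb, -0.10 for Vtn and -0.40 for Rgs5. It was -0.54 for Pecam1, -0.65 for Flt1 and -1.02 for Cldn5, and on the other side 1.77 for Slco1c1, 3.53 for Abcb1a and 4.71 for Kdr. Of the 13560 genes tested, 1.60% had a larger home cage spread than Kdr and 7.51% a larger one than Abcb1a, whereas 96.1% had a larger one than Pdgfrb. The median size of the difference was 0.65 over the 9 vessel genes tested and 1.08 over all genes tested. Home cage libraries were more than 2-fold apart on this scale for 4 of the 9 vessel genes (Cldn5, Slco1c1, Abcb1a and Kdr), a share of the same order as the 52.7% of all genes tested.

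**Figure D2:**
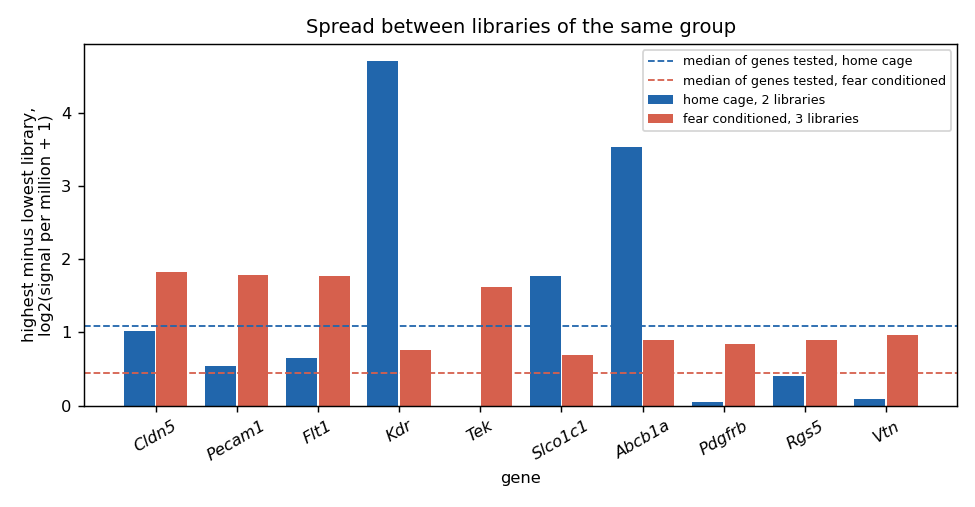
Bars give, for each gene on the x axis, the highest minus the lowest library on the log2(CPM + 1) scale, within the 2 home cage libraries (blue) and within the 3 fear conditioned libraries (red), and dashed lines give the medians over all genes tested. The home cage bar is 4.71 for Kdr and 3.53 for Abcb1a and under 0.5 for the 3 mural genes, while the fear conditioned bars exceed the median of 0.44 for all 10 genes.

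Among the fear conditioned libraries the vessel genes varied more than most genes. The range over the 3 libraries was between 0.69 and 1.83 on the log2(CPM + 1) scale for the 10 genes, with a median of 0.44 over all genes tested, and it was largest for Cldn5, Pecam1 and Flt1. The home cage spread exceeded the fear conditioned range for 3 of the 9 vessel genes tested (Slco1c1, Abcb1a and Kdr), while it did so for 75.7% of all genes tested. Replicate 3 was the lowest of the fear conditioned libraries for 8 of the 10 genes, all but Slco1c1 and Pdgfrb, beside 33.6% of all genes in the table, a library singled out after its values were seen. Summed, the 7 endothelial genes had 37.4, 12.2 and 30.1 CPM in replicates 2, 3 and 4, and the 3 mural genes 31.0, 15.2 and 25.97 CPM. Replicate 3 was also lowest for 5 of 5 blood cell genes, 7 of 8 microglia genes and 7 of 8 astrocyte genes, but for 1 of 5 pan-neuronal genes and 1 of 10 choroid plexus genes.

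Across the comparison of fear conditioned with home cage libraries, 0 of the 9 vessel genes tested passed an adjusted p of 0.05 with an absolute log2 fold change over 0.5 (limma, Benjamini-Hochberg adjustment), as did 0.0% of all 13560 genes. The fitted log2 fold change was below 0 for 8 of the 9 genes, all but Cldn5, and for 46.0% of all genes, with medians of -1.24 over the 9 genes and 0.08 over all genes tested. At an unadjusted p under 0.05 there were 3 lower genes (Slco1c1, Rgs5 and Vtn; 7.32% of all genes tested) and 1 higher gene (Cldn5; 9.49% of all genes tested). Fear conditioned libraries lay below both home cage libraries for 4 of the 9 genes (Slco1c1, Pdgfrb, Rgs5 and Vtn; 16.1% of all genes tested) and above both for 1, Cldn5 (20.2% of all genes tested). The filter on the mean keeps a gene that is high in 1 group alone, so these shares describe the genes that passed it. Cldn5 passed it only through the fear conditioned libraries, so its place as the higher gene is no independent result.

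On the recovered reads, DESeq2 called Rgs5 alone among the vessel genes as lower after fear conditioning, with an adjusted p of 0.00243 (3.81% of all genes tested were called lower), and edgeR's likelihood ratio test also called it, with an adjusted p of 0.0135 (2.3% of all genes). The quasi-likelihood test of edgeR called none of the 9 genes and 0 genes in all, and so did limma voom. Over the alternatives run, the adjusted p of Rgs5 ranged from 0.00243 to 0.911. With 1 home cage library left out, the other is assumed to vary like the fear conditioned libraries, and limma then called 7 of the 9 genes without home cage replicate 6 (58.7% of all genes tested) and 1, Rgs5, without home cage replicate 7 (24.8% of all genes tested).

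**Figure D3:**
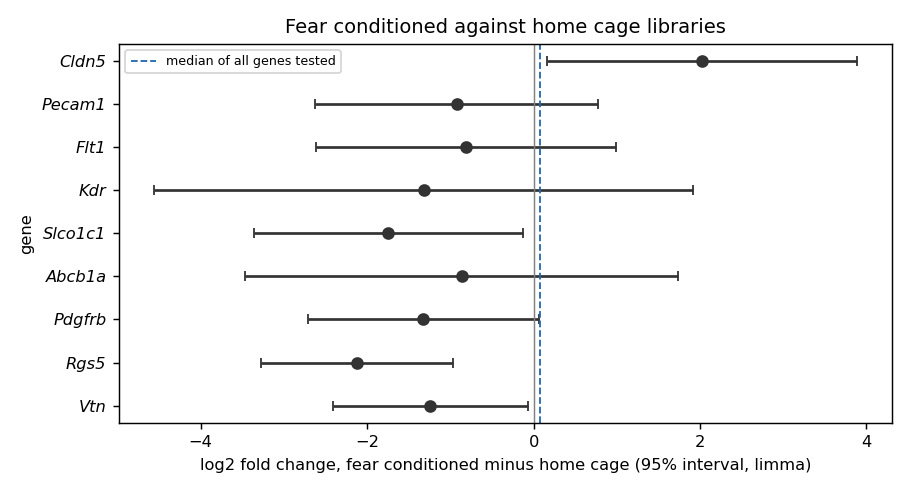
Points are the limma log2 fold changes of fear conditioned over home cage libraries on the log2(CPM + 1) scale, for the 9 genes tested, with 95% intervals, and the dashed line is the median of all genes tested (0.08). The interval of Rgs5 runs from -3.28 to -0.97 and those of Pecam1, Flt1, Kdr, Abcb1a and Pdgfrb include 0.

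Many other genes of the endothelium also differed between the home cage libraries. Of 22 further endothelial genes 20 were in the table and 16 passed the filter, of which 0 passed the test. At an unadjusted p under 0.05, 2 were higher (Sox17 and Sox18, transcription factors of endothelial fate, beside 9.49% of all genes tested) and none was lower (7.32% of all genes tested). DESeq2 and the likelihood ratio test of edgeR each called Sox18 higher and Ly6c1 lower. Of the 13560 genes tested, they called 501 and 348 higher, and 3.81% and 2.3% lower. Sox17 had 0 and 7 reads and Sox18 0 and 1 reads in the home cage libraries, so both passed the filter on the mean only through the fear conditioned libraries. The median home cage difference of the 16 genes was 2.23 in size, against 1.08 for all genes tested. The 2 with the highest mean were Itm2a, with 76.2, 36.6 and 52.4 CPM after fear conditioning, against 41.3 and 57.2 CPM in home cage libraries, and Ly6c1, with 8.15, 3.04 and 7.35 CPM and 8.98 and 150.5 CPM. Cdh5, Ly6a, Ptprb and Vwf were picked after their values were seen because they resembled Kdr. Cdh5, the cadherin of endothelial junctions, had 8 reads in home cage replicate 6 and 269 in replicate 7, and Ly6a had 1 and 805. The phosphatase Ptprb had 0 and 847 reads, and Vwf, the clotting factor stored by endothelial cells, 0 and 276. The opposite pattern was seen for Emcn (86 and 0 reads), Cd34 (168 and 3 reads) and Ocln (266 and 0 reads), also picked after their values were seen, so neither home cage library was the higher one for all endothelial genes.

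**Figure D4:**
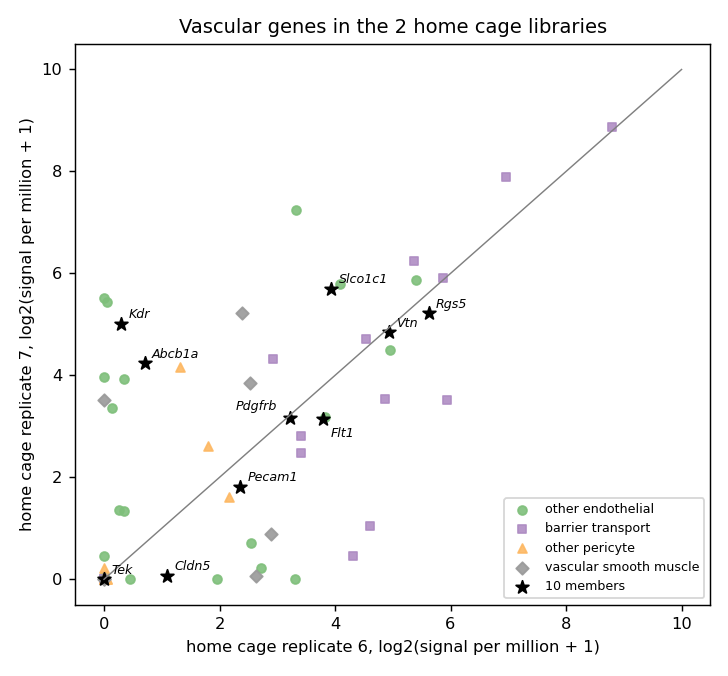
Each point is 1 gene, with log2(CPM + 1) in home cage replicate 6 on the x axis and in replicate 7 on the y axis, for the 10 vessel genes (stars) and further vascular lists (colors), and the line marks equal values. Of the 10 genes, the 3 mural genes lie near the line and Kdr and Abcb1a far above it. Some further endothelial genes lie along the x axis at 0 or near 0 in replicate 7, and others along the y axis at 0 or near 0 in replicate 6. Some further pericyte and smooth muscle genes also lie far from the line (Ndufa4l2 at 1.503 and 17.0 CPM, Tagln at 0 and 10.4 CPM).

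Of the barrier transport list, several genes lay below the home cage libraries. Of its 14 genes 12 were tested and 0 passed the test, while 5 had an unadjusted p under 0.05 and were lower (7.32% of all genes tested), and 7 lay below both home cage libraries in every fear conditioned library (16.1% of all genes tested). DESeq2 called 3 of them lower (Slc2a1, Tfrc and Spock2; 3.81% of all genes tested) and the likelihood ratio test of edgeR 0. Slc2a1, the glucose transporter of the barrier, had 28.4, 13.8 and 22.2 CPM after fear conditioning, against 57.4 and 59.2 CPM in home cage libraries. The 2 genes with the highest mean differed in direction, Bsg with 807, 521 and 686 CPM after fear conditioning, against 444 and 466 CPM in home cage libraries, and Spock2 with 81.6, 63.3 and 92.3 CPM and 124 and 236 CPM. Neurons also express Bsg and Spock2. Slc19a3 (22, 23 and 20 reads after fear conditioning) and Slc38a5 (30, 0 and 2 reads) had 0 reads in both home cage libraries.

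Of the further mural genes tested, Mylk alone lay below both home cage libraries in every fear conditioned library, as Rgs5, Vtn and Pdgfrb did. Tagln and Pln lay above both. Over all genes tested, 16.1% lay below both home cage libraries and 20.2% above. Among those not tested, Abcc9 (27, 5 and 15 reads after fear conditioning, 1 and 0 in home cage libraries) and Cd248 (41, 23 and 10, 1 and 0) lay above both. So did Atp13a5 (36, 17 and 23, 0 and 3), Higd1b, Foxc1 and Myh11. These genes are named after their values were seen. The untested ones had less than 1 CPM in both home cage libraries. They are therefore in the table only through the fear conditioned libraries, and their direction is no test of a difference. Of 10 further pericyte genes 9 were in the table and 3 were tested, with 0 past the test, 0 at an unadjusted p under 0.05 and 0 called by DESeq2 or the likelihood ratio test of edgeR. Cspg4 (NG2), which oligodendrocyte precursors also express, had 4.08, 1.96 and 3.53 CPM after fear conditioning, against 2.50 and 5.11 CPM in home cage libraries, and Ndufa4l2 had 2.94, 1.499 and 2.14 CPM and 1.503 and 17.0 CPM. In both home cage libraries the channel gene Kcnj8 had 0 reads (71, 0 and 12 after fear conditioning), as had Higd1b (4, 20 and 23) and Foxc1 (23, 28 and 25). Of 8 smooth muscle genes 7 were in the table and 6 were tested, with 0 past the test. At an unadjusted p under 0.05, 1 was higher (Pln, beside 9.49% of all genes tested) and 1 lower (Mylk, beside 7.32% of all genes tested). DESeq2 and the likelihood ratio test of edgeR called Pln higher, as they did 501 and 348 of the 13560 genes tested. Pln passed the filter on the mean only through the fear conditioned libraries. Tagln had 19.8, 11.3 and 16.8 CPM after fear conditioning, against 0 and 10.4 CPM in home cage libraries, and Myl9 had 3.18, 1.58 and 4.27 CPM and 4.24 and 36.1 CPM. The median home cage difference was 2.29 in size over the smooth muscle genes tested and 0.80 over the further pericyte genes tested, against 1.08 for all genes tested. Myh11, the myosin of smooth muscle, and Pln had 0 reads in both home cage libraries. Over the 4 further vascular lists, 8 of 50 genes had 0 reads in both home cage libraries, beside 3.5% of all genes in the table, and none had 0 reads in all fear conditioned libraries. All 8 had a signal below 4 CPM in every fear conditioned library, and they are in the table only through those libraries.

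Ligands of these receptors come from neurons and glia as well as from the vessels. Of 16 ligand and co-receptor genes 15 were in the table and 12 were tested, with 0 past the test. At an unadjusted p under 0.05, 1 was lower (Wnt7a, beside 7.32% of all genes tested). DESeq2 also called Wnt7a lower (3.81% of all genes tested) and the likelihood ratio test of edgeR did not. Vegfa, the ligand of Flt1 and Kdr, had 19.9, 27.0 and 26.2 CPM after fear conditioning, against 38.4 and 22.8 CPM in home cage libraries, and Vegfb, a ligand of Flt1, had 105, 73.8 and 99.5 CPM and 95.3 and 128 CPM. Both overlapped between the groups. Pdgfb, the ligand of Pdgfrb, had 24.7, 22.1 and 13.3 CPM after fear conditioning, against 9.18 and 71.5 CPM in home cage libraries, again on either side, and Pdgfa had 26.3, 23.9 and 25.97 CPM and 33.9 and 71.2 CPM. The lymphatic growth factor Vegfc had 23, 13 and 12 reads after fear conditioning, against 0 in both home cage libraries.

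Markers of some other cell types also differed in level between the groups. Over all genes tested, 16.1% lay below and 20.2% above both home cage libraries in every fear conditioned library. Choroid plexus genes summed to between 113 and 185 CPM after fear conditioning, against to 1949 and 2246 CPM in home cage libraries, with 6 of 9 genes tested below both home cage libraries, Ttr at 0.348 to 22.1 against 913 and 1320 CPM and Enpp2 at 49.9 to 72.4 against 482 and 1201 CPM. Astrocyte genes summed to between 616 and 715 CPM and to 1082 and 1428 CPM, with 5 of 8 genes below both home cage libraries (Aldoc and Slc1a3 among them). Microglia genes had overlapping sums of 54.1 to 100 CPM and of 97.8 and 112 CPM, with 2 of 8 genes below both home cage libraries (Csf1r and Itgam) and 2 above (P2ry12 and Aif1), while C1qb overlapped. Pan-neuronal genes summed to between 6336 and 8356 CPM and to 5253 and 6057 CPM, with 2 of 5 genes below both home cage libraries (Syt1 and Stmn2) and 1 above (Snap25), and all 4 Drd2 neuron genes were above both home cage libraries. The part of these cell types in the values of the vessel genes was not tested.

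**Figure D5:**
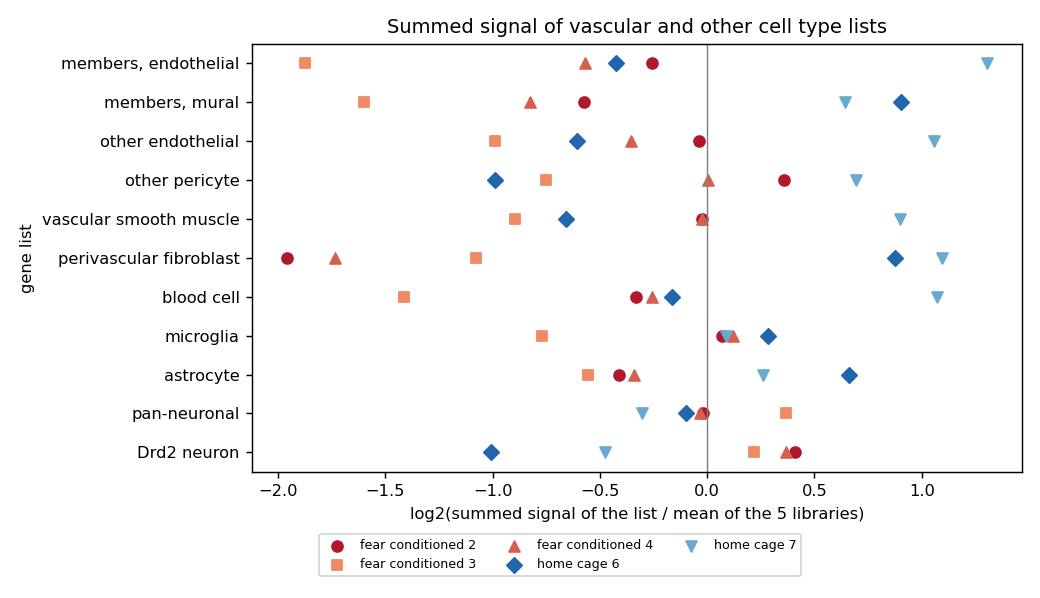
Points give, for each gene list on the y axis, the log2 ratio of the summed signal of a library to the mean of the 5 libraries. For the mural genes (71.9 and 86.3 CPM in home cage libraries against 15.2 to 31.0 CPM) and the fibroblast genes all fear conditioned libraries lie left of both home cage libraries, and for the endothelial genes home cage replicate 6 (33.4 CPM) lies within the fear conditioned libraries and replicate 7 (111 CPM) far to the right.

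The mean of their profiles, each centered on the mean of its gene, was lowest in fear conditioned replicate 3 (-0.96 on the log2(CPM + 1) scale) and highest in home cage replicate 7 (0.79). Outside the lists, the genes nearest to it over the 5 libraries were Pcgf2, Hapln4, Vkorc1, Vat1 and 2310021P13Rik, with root mean square distances between 0.0732 and 0.130.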

How the data were processed

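Ribosome-bound RNA was sequenced in 5 libraries, grouped by the labels. The authors analyzed reads with software that the methods call Tuxedo DESeq, and the submitters' processing notes name DESeq and mm8. The aligner, the versions and the use of strand are not given in the sources used here. The authors deposited a normalized signal (CPM of an effective library size) and a gene length in bases (treated as a score, since a few entries elsewhere in the table are negative); no gene of the table had all 5 values at 1 or less. All values (100%) were whole multiples of 1 read within 0.01, and these multiples served as recovered reads.

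Groups were compared with limma 3.58.1 (trend) on log2(CPM + 1) for 13560 genes with a mean of at least 1, adjusted over all of them, with cutoffs of an adjusted p of 0.05 and 0.5 on the log2 scale. edgeR 4.0.16 and DESeq2 1.42.0 were run on the reads of the same genes. Fold changes on this scale understate changes of low genes. Each library is a pool of 3 animals, and p-values measure the spread between these pools. Simulated counts with the same dispersion in both groups were used to test limma, both tests of edgeR, DESeq2 and limma voom, but not the other settings. In these data the home cage spread exceeded the fear conditioned range for 75.7% of genes tested, a case the simulation did not cover. Of the table's identifiers 14622 were found in a table of symbols, and list genes were matched by name, identifier or synonym.

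The 10 genes and all lists (further endothelial, barrier transport, pericyte, smooth muscle, fibroblast, ligand, blood, choroid plexus, astrocyte, microglia, neuronal) were chosen with earlier results of these data known. Named were the 10 genes, the 2 genes with the highest mean in each list, genes at 0 in all libraries of a group, and the 5 genes with the nearest profile. One further list is not reported here. Further genes are named as those behind a count or as chosen after their values were seen. R 4.3.3 and Python 3.11.15 were used.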

Additional observations from a re-analysis of the deposited data

How the results depend on the processing

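No paired analysis was possible because the groups share no replicate number. The limma fit called 0 genes and 0 vessel genes, also with a pseudocount of 0.1, without a filter, with a minimum of 1 CPM in each library, after quantile normalization, with array weights per group, without a fold change cutoff and at an adjusted p of 0.1. The likelihood ratio test of edgeR called 660 genes and DESeq2 1017, each with 1 vessel gene, and edgeR's quasi-likelihood test (TMM or upper quartile) and limma voom called 0. With each library left out in turn, limma called between 0 and 7956 genes and between 0 and 7 vessel genes. Over the same fits, the log2 fold change ranged from -3.68 to 1.03 for Kdr and from -2.63 to 0.90 for Abcb1a, which turned without home cage replicate 7, and kept its sign for the other 7 genes, from -2.33 to -1.86 for Rgs5. The median home cage difference of the 9 genes was between 0.57 and 0.71 under the other scalings. After quantile normalization the home cage difference (replicate 7 minus 6) turned to 0.44 for Cldn5, 0.81 for Pecam1, 0.66 for Pdgfrb and 0.060 for Vtn, and with TMM factors to 0.033 for Pdgfrb, while that of Flt1 moved to -0.05 after quantile normalization and that of Cldn5 to -3.02 with a pseudocount of 0.1, and the cause was not tested. Several vessel genes had few reads (1 and 34 for Cldn5 in the home cage libraries), which limits the precision of their values.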

Other observations

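Genes listed as markers of perivascular fibroblasts differed among themselves. Of 8 such genes 5 were in the table and 3 were tested, with 0 past the test (limma). At an unadjusted p under 0.05, 2 were lower, beside 7.32% of all genes tested. Igf2, a growth factor of the meninges and choroid plexus, had 2.89, 1.499 and 2.93 CPM after fear conditioning, against 12.3 and 34.2 CPM in home cage libraries. The collagen gene Col1a2, named as the other gene behind that count, had 1.09, 1.21 and 0.993 CPM and 7.71 and 24.2 CPM. DESeq2 and the likelihood ratio test of edgeR on the recovered reads called both lower, beside 3.81% and 2.3% of all genes tested. Dcn, the proteoglycan decorin, had 2.61, 8.54 and 2.18 CPM after fear conditioning, against 30.3 and 0.105 CPM in home cage libraries, on either side of the fear conditioned libraries. Col3a1 had 0, 30 and 15 reads after fear conditioning, against 0 in both home cage libraries.

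Of the 5 blood cell genes, the 4 globins had reads in every library, and Alas2 had 344 reads in home cage replicate 6 and 0 in replicate 7. Hbb-b1, a beta globin of red cells, had 16.5, 8.08 and 18.3 CPM after fear conditioning, against 15.6 and 59.1 CPM in home cage libraries, and Hba-a1 had 7.40, 4.25 and 6.60 CPM and 4.11 and 13.7 CPM. Of 5 blood cell genes tested 0 passed the test or had an unadjusted p under 0.05 (limma), DESeq2 and the likelihood ratio test of edgeR called 0, and the groups overlapped for all 5. Reads of the near-identical globin copies can be split between them. Summed, the list was lowest in fear conditioned replicate 3 (15.1 CPM) and highest in home cage replicate 7 (84.5 CPM), as were the 7 endothelial genes (12.2 and 111 CPM).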
